A study of Rattus norvegicus with 16 samples.

Results

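Basement membranes are thin sheets of extracellular matrix that lie under epithelia and endothelia and wrap muscle fibres, fat cells and peripheral nerve. Laminins, each assembled from an alpha, a beta and a gamma chain, polymerise at the cell surface on receptors such as dystroglycan and integrins, and a separate network of type IV collagen is joined to them by nidogens and by heparan sulfate proteoglycans such as perlecan and agrin. In bone these proteins are best known from marrow vessels, from the adipocytes of the marrow and from the matrix around stromal and bone-forming cells. Here 31 genes for such proteins (laminin chains, type IV collagen chains, nidogens, proteoglycans, the SMOC proteins, other associated proteins and the receptor dystroglycan) were chosen by name and followed in cells that adhered to titanium implants. All 31 were measured among the 17245 genes tested, each by its brightest array row, and Lama2 and Col4a2 had 2 rows each.

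Commercially pure titanium implants (32 in all) had been placed in the tibiae of 8 male Sprague Dawley rats, and RNA came from the cells adhering to retrieved implants, with the implants of a tibia pooled. The groups were AT-I, a surface with nanoscale features, at day 4 and at day 2, and AT-II, a microrough surface lacking them, at day 4 and at day 2, with 4 arrays each and 4 rats a day. Each rat carried AT-I in one tibia and AT-II in the other; the labels give no genotype, agent or age, and describe the cells only as tibial. All expression values below are log2 levels on Affymetrix Rat Gene 1.1 ST arrays, and a difference of 1 is a doubling; levels of different genes are not set against each other, since each row has its own probes.

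A pair of arrays, replicates 2 and 3 of AT-II at day 2, came out nearly identical: the SD of their difference over the most variable rows was 0.109, against at least 0.294 for other pairs. Their mean stands for a single sample here, which leaves n = 3 for AT-II day 2 and a total of 15 samples. Nothing in the labels ties a replicate number to a rat, so the main comparisons are unpaired. Their p-values set a difference against the spread between these samples only, pooled over the groups. As each rat carried both surfaces, the day comparisons on AT-I and AT-II come from the same rats and are not independent of each other. Of the 31 genes, 8 (Lama1, Lama5, Lamb3, Lamc3, Col4a4, Col4a5, Col4a6 and Ntn4) had a mean under 5.64, the level that 75% of 1301 chemosensory receptor genes did not exceed; chemosensory receptors are rarely expressed outside sensory organs, so values in this range are hard to tell from background.

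Promoter sequence is shown for 3 genes on which the results turn: Npnt and Hspg2, which changed on both surfaces, and Col4a1, which shares its start region with Col4a2 and did not pass the test. RefSeq windows of 300 bases (250 before and 50 from the start, build GRCr8) were matched for 26 of the 31 genes, in 28 windows. Capitals mark matches, on either strand, to the GC box GGGCGG or to the CCAAT box; no base lies in matches of both.
Npnt, chr2:224133386-224133685, minus strand: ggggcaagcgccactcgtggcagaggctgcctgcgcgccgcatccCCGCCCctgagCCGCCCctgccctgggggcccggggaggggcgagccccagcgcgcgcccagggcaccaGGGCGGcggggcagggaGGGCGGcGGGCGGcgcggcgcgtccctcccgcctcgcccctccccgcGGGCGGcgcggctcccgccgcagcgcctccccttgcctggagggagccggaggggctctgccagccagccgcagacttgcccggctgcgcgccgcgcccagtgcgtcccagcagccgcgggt
Hspg2, chr5:154960596-154960895, plus strand: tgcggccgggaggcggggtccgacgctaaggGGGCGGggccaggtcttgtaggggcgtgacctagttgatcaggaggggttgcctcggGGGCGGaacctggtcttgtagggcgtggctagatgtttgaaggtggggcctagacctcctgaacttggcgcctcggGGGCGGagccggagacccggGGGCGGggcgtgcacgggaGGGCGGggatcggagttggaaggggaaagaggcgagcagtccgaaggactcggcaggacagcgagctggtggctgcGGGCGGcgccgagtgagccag
Col4a1, chr16:84885347-84885646, plus strand: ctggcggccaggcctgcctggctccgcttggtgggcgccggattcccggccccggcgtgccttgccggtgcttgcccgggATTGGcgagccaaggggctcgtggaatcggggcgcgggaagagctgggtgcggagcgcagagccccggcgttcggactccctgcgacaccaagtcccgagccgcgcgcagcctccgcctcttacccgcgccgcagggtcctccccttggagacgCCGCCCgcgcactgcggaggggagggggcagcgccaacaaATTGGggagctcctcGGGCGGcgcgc

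The Npnt window held 6 GC boxes and no CCAAT box. The Hspg2 window, matched by symbol because its gene identifier differed from that of the array, also held 6 GC boxes and no CCAAT box. In the Col4a1 window there were 2 GC boxes and 2 CCAAT boxes, and the start of Col4a2, which is read the other way, lay at position 174 of it, 77 bases from that of Col4a1. Over all 28 windows of these genes, 19 held a GC box, against 33.1% of the 33469 windows in the RefSeq table. CCAAT was found in 9 windows, against 37.5% of all. A TATA box (TATAAA) was found in 2, those of Smoc1 and Lama4, against 14.2% of all. The RUNX core TGTGGT was found in 2, those of Ntn4 and Col4a6, against 17.3%, and the AP-1 site TGANTCA in the Lama3 window only, against 7.33%. Some sequence was counted more than once, so the windows are not all separate promoters. The Col4a1 and Col4a2 windows share 176 bases, those of Col4a3 and Col4a4 share 88, and Papln has windows that nearly coincide. These matches describe letters in a window and were not tested as binding sites.

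The first question was how the cells on each surface changed with time. On AT-I, 10 of the 31 genes were higher at day 4 than at day 2 and 0 were lower (limma, adjusted p under 0.05). All laminin, nidogen and proteoglycan classes had at least 1 gene among the 10, together with nephronectin and dystroglycan, and the 6 type IV collagen chains had none. The 10 make up 32.3% of the genes, against a background of 8.84% of all genes tested that were called higher. Since the genes were chosen with earlier results of these data known, this share and that on AT-II are descriptions and no independent test. The median difference of the 31 was 0.31, against -0.05 over all genes, and 20 of the 31 differences were positive. For 9 genes the 4 day 4 samples all lay above the 4 day 2 samples, against 11.3% of all genes, and for Col4a4 they all lay below, against 4.01%. In these bulk samples a change in the share of a cell type and a change in RNA per cell cannot be told apart.

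On AT-II, Npnt, Lamb2, Hspg2 and Agrn were higher at day 4 than at day 2 and 0 of the 31 were lower. These 4 make up 12.9% of the genes, against a background of 3.13%, and all of them were also among the 10 on AT-I. The median difference was 0.23, against -0.05 over all genes, and 22 of 31 were positive. The samples did not overlap for 8 genes that were higher at day 4 (Lama2, Lama4, Lamb2, Hspg2, Agrn, Col18a1, Npnt and Dag1), against 8.74% of all genes, and for 1 that was lower, Col4a3, against 7.63%.

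**Figure D1:**
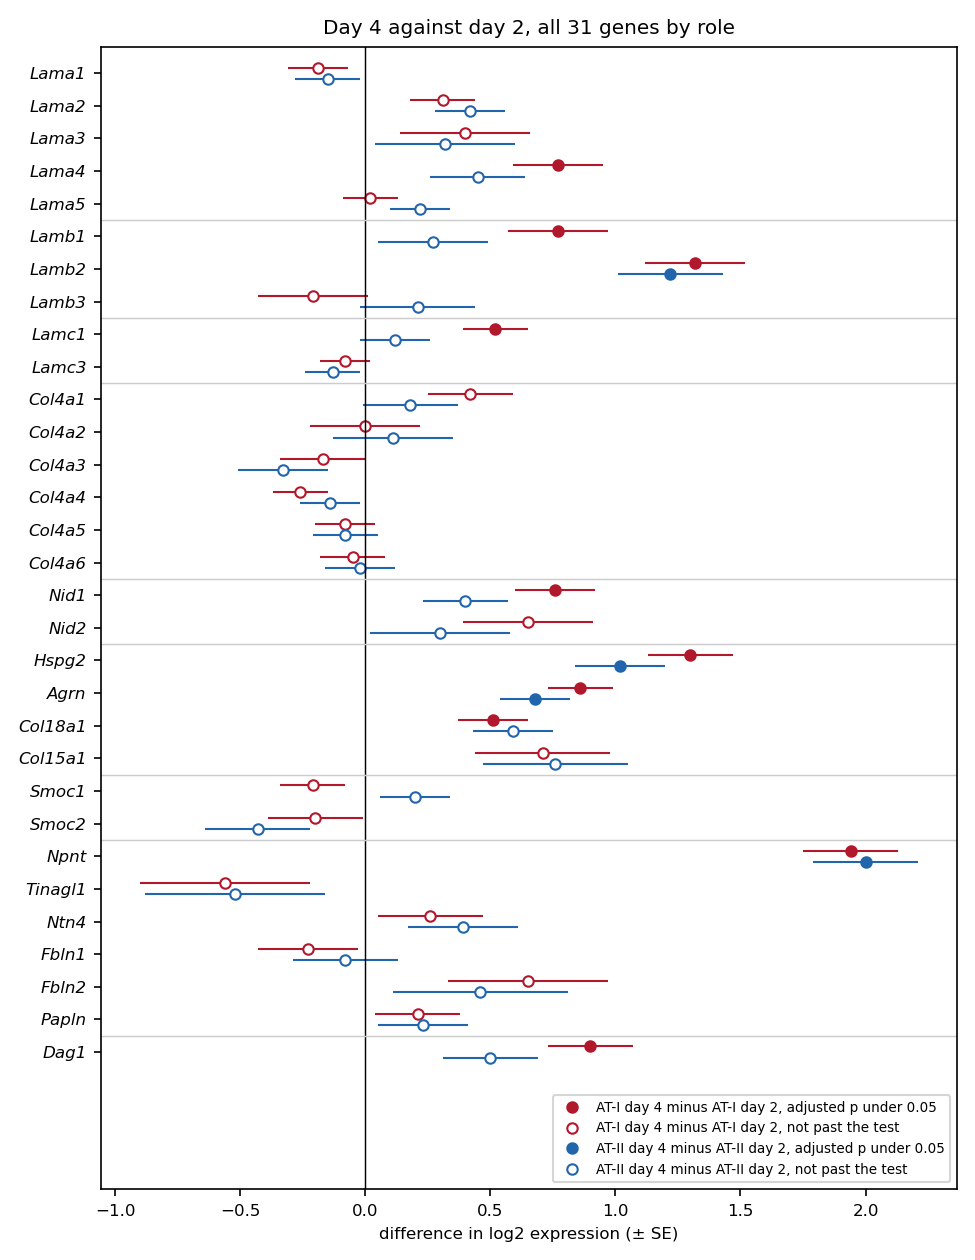
Difference in log2 expression between day 4 and day 2 (± SE) for the 31 genes, ordered by role, on AT-I (red) and on AT-II (blue), with filled points for adjusted p under 0.05. Filled points lie only to the right of 0, Npnt lies farthest right on both surfaces at 1.94 and 2.00, and the type IV collagen chains lie between -0.33 and 0.42.

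Among the 5 laminin alpha chains, Lama4 rose on AT-I and none passed on AT-II. Lama4 encodes the chain found in vessel, fat and muscle basement membranes. Its level was 8.52, 8.51, 8.89 and 8.66 in AT-I day 4 samples, against 7.68, 7.59, 8.42 and 7.78 in AT-I day 2 samples. The groups did not overlap, with the third day 2 sample well above the other day 2 samples. The difference was 0.77 ± 0.18 (SE, n = 4 and 4, adjusted p = 0.00967), and it was 0.60 (adjusted p = 0.0821) when quantile normalisation was repeated on the deposited values. On AT-II, Lama4 averaged 8.69 ± 0.202 at day 4 (SD, n = 4) and 8.25 ± 0.229 at day 2 (SD, n = 3), without overlap but not past the test (0.45 ± 0.19, adjusted p = 0.313).

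The other 4 alpha chains did not pass on either surface. Lama2, the chain of muscle and peripheral nerve, differed by 0.31 ± 0.13 on AT-I (adjusted p = 0.137) and by 0.42 ± 0.14 on AT-II (adjusted p = 0.162). On AT-II its day 4 samples, at 6.25 to 6.54, all lay above its day 2 samples, at 5.85 to 6.07. Its second array row had smaller values in every group and averaged 5.35 ± 0.189 in AT-I day 4, 5.33 ± 0.245 in AT-I day 2, 5.42 ± 0.255 in AT-II day 4 and 5.11 ± 0.108 in AT-II day 2. Lama3, a chain of epithelial anchoring laminins, stood out in 1 sample, AT-II day 4 replicate 2, at 7.34, while the other 14 lay between 5.63 and 6.49. Lama1, best known from embryonic basement membranes, and Lama5, the widespread adult chain, differed by -0.19 to 0.22 between days.

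Both common beta chains rose on AT-I. Lamb2 encodes the beta chain of the neuromuscular synapse, the kidney glomerulus and mature vessels. It stood at 7.98, 7.73, 7.95 and 7.92 in AT-I day 4 samples, against 5.92, 6.81, 6.63 and 6.95 in AT-I day 2 samples. Day 4 was tight and day 2 wide, with the first day 2 sample lowest, and every day 4 sample lay above every day 2 sample. The difference was 1.32 ± 0.20 (adjusted p = 0.000444), a 2.50-fold change. On AT-II the levels of Lamb2 were 8.31, 8.12, 8.27 and 7.72 at day 4, against 6.72, 6.81 and 7.12 at day 2 (the second value is the averaged pair). Here too the groups did not overlap, with a difference of 1.22 ± 0.21 (adjusted p = 0.00353), a 2.33-fold change.

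Lamb1, the beta chain of most embryonic and many adult laminins, was at 8.31, 8.08, 8.53 and 8.46 in AT-I day 4 samples, against 7.24, 7.16, 8.29 and 7.60 in AT-I day 2 samples. The groups overlapped, because the third day 2 sample exceeded the second day 4 sample. The difference of 0.77 ± 0.20 passed at adjusted p = 0.0218, but it no longer passed when AT-I day 2 lost replicate 1 (0.66, adjusted p = 0.0708) or replicate 2 (0.63, adjusted p = 0.0529), or when AT-I day 4 lost replicate 4 (0.73, adjusted p = 0.0679). Nor did it pass with each array centred on its median (0.61, adjusted p = 0.0700), with quantile normalisation repeated (0.58, adjusted p = 0.129) and in a fit of the 2 groups alone (0.77, adjusted p = 0.0868). On AT-II, Lamb1 averaged 8.36 ± 0.0858 at day 4 and 8.09 ± 0.236 at day 2 and did not pass (0.27 ± 0.22, adjusted p = 0.684). Lamb3, the beta chain of epidermal anchoring laminins, did not pass on either surface and was among the genes of low signal.

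Lamc1 encodes the gamma chain shared by most laminins. Its levels were 8.36, 8.43, 8.32 and 8.42 in AT-I day 4 samples, against 7.89, 7.70, 8.09 and 7.78 in AT-I day 2 samples. The day 4 samples lay close together and above all of day 2. The difference was 0.52 ± 0.13 (adjusted p = 0.0152), with 0.36 (adjusted p = 0.0916) after centring each array on its median and 0.34 (adjusted p = 0.172) after repeated quantile normalisation. On AT-II, Lamc1 averaged 8.41 ± 0.198 at day 4 and 8.29 ± 0.198 at day 2, a difference within the spread of the samples (0.12 ± 0.14, adjusted p = 0.801). Lamc3, the remaining gamma chain measured, lay between 4.47 and 4.84 in all 15 samples.

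None of the 6 type IV collagen chains passed on either surface. Col4a1 and Col4a2 encode the chains of the most widespread collagen IV network, and they lie head to head on chromosome 16. Col4a1 had 7.36, 7.21, 7.44 and 7.54 in AT-I day 4 samples, against 6.88, 6.70, 7.22 and 7.07 in AT-I day 2 samples. These groups overlapped by a hair at the third day 2 sample, and the difference was 0.42 ± 0.17 (adjusted p = 0.130). Its AT-II levels were 7.25, 7.99, 7.63 and 7.28 at day 4, against 7.65, 7.10 and 7.33 at day 2, and they overlapped widely (0.18 ± 0.19, adjusted p = 0.778).

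Col4a2 had 8.31, 7.82, 8.62 and 8.22 in AT-I day 4 samples, against 8.48, 7.71, 8.62 and 8.15 in AT-I day 2 samples. Samples of the 2 days were interleaved, with a difference of 0.00 ± 0.22 (adjusted p = 0.996). The AT-II levels were 8.17, 8.82, 8.26 and 8.19 at day 4, against 8.57, 7.95 and 8.24 at day 2, with a difference of 0.11 ± 0.24 (adjusted p = 0.917). Its second row averaged 7.65 ± 0.17 in AT-I day 4, 7.73 ± 0.229 in AT-I day 2, 7.74 ± 0.251 in AT-II day 4 and 7.79 ± 0.263 in AT-II day 2, and so also showed no gap between days.

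The other chains form networks known from kidney, lung, testis, smooth muscle and the eye. Col4a3 and Col4a4 lie head to head on chromosome 9, with starts 413 bases apart. Col4a3 averaged 5.90 ± 0.338 in AT-I day 4 and 6.07 ± 0.248 in AT-I day 2 (-0.17 ± 0.17, adjusted p = 0.508). On AT-II it averaged 5.80 ± 0.181 at day 4 and 6.14 ± 0.138 at day 2, with no overlap (-0.33 ± 0.18, adjusted p = 0.484). Col4a4 averaged 5.32 ± 0.105 in AT-I day 4 and 5.57 ± 0.0557 in AT-I day 2, also with no overlap (-0.26 ± 0.11, adjusted p = 0.146), and 5.30 ± 0.152 and 5.43 ± 0.169 on AT-II at day 4 and day 2. Col4a4 was called lower on AT-I with each array centred on its median. That scaling moved the median difference of all genes to -0.21 and called 1504 of all 17245 genes lower. Col4a5 and Col4a6 lie head to head on the X chromosome with starts 1415 bases apart, Col4a5 ranging from 4.66 to 5.15 and Col4a6 from 4.73 to 5.27 over all samples.

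**Figure D2:**
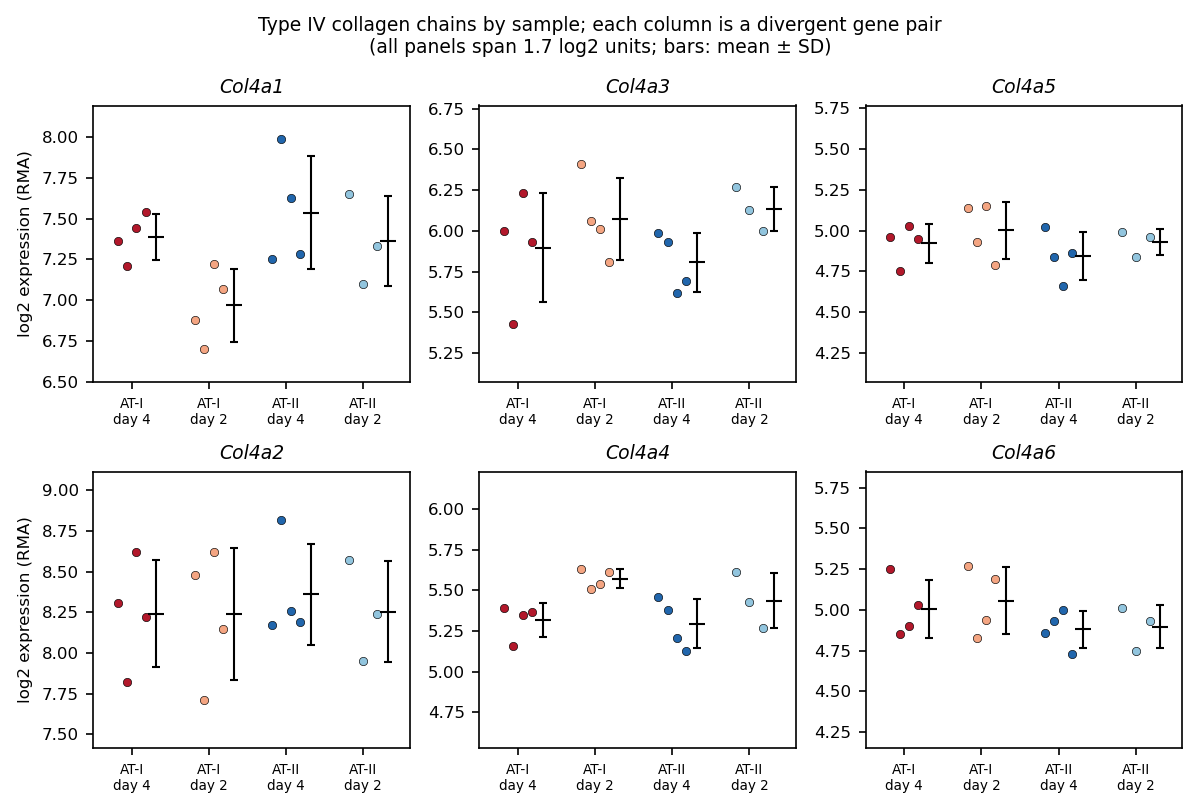
Log2 expression of the 6 type IV collagen chains in each of the 15 samples (points) with the mean ± SD of each group (bars); each column holds a head-to-head gene pair and every panel spans the same number of log2 units. Day 4 and day 2 samples are interleaved for Col4a2, and the groups separate only for Col4a4 on AT-I and for Col4a3 on AT-II.

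Of the nidogens, which bridge laminin and type IV collagen, Nid1 rose on AT-I. It had 9.27, 9.09, 9.15 and 9.18 in AT-I day 4 samples, against 8.27, 8.43, 8.72 and 8.23 in AT-I day 2 samples. Every day 4 sample exceeded every day 2 sample, and the difference was 0.76 ± 0.16 (adjusted p = 0.00483), a 1.69-fold change. On AT-II, Nid1 averaged 9.18 ± 0.284 at day 4 and 8.77 ± 0.245 at day 2, with overlap (0.40 ± 0.17, adjusted p = 0.300). Nid2 differed by 0.65 ± 0.26 on AT-I (adjusted p = 0.116), where 1 day 4 sample, replicate 3, reached 8.56 and the others lay between 7.08 and 7.51, and by 0.30 ± 0.28 on AT-II (adjusted p = 0.730).

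The proteoglycans made up the class with the most calls, when laminin alpha, beta and gamma chains are counted apart. On AT-I 3 of 4 passed, and on AT-II 2 of 4. Hspg2 encodes perlecan, the large heparan sulfate proteoglycan of basement membranes, which is also found in cartilage and marrow. Its levels were 8.86, 8.75, 8.77 and 8.46 in AT-I day 4 samples, against 7.05, 7.38, 7.76 and 7.49 in AT-I day 2 samples. All day 4 samples lay clearly above day 2, and the difference was 1.30 ± 0.17 (adjusted p = 0.00014), a 2.45-fold change. On AT-II, Hspg2 stood at 8.81, 8.93, 8.96 and 8.44 at day 4, against 7.68, 7.58 and 8.04 at day 2. The order was the same there, with a difference of 1.02 ± 0.18 (adjusted p = 0.00399), a 2.03-fold change.

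Agrn encodes agrin, known for clustering acetylcholine receptors at the neuromuscular synapse and for binding dystroglycan. It had 7.37, 7.14, 6.89 and 7.10 in AT-I day 4 samples, against 6.04, 6.28, 6.34 and 6.41 in AT-I day 2 samples. No samples overlapped, and the difference was 0.86 ± 0.13 (adjusted p = 0.000636), a 1.81-fold change. On AT-II, Agrn had 7.19, 7.41, 7.26 and 6.96 at day 4, against 6.40, 6.51 and 6.66 at day 2. Its groups were again separate, with a difference of 0.68 ± 0.14 (adjusted p = 0.0139), and the call ended without AT-II day 2 replicate 1 (0.62, adjusted p = 0.0985), without the averaged sample (0.68, adjusted p = 0.0652) and with repeated quantile normalisation (0.53, adjusted p = 0.0976).

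Col18a1 encodes type XVIII collagen, a heparan sulfate proteoglycan and the source of endostatin. The levels were 6.73, 6.61, 6.42 and 6.91 in AT-I day 4 samples, against 6.14, 5.94, 6.32 and 6.21 in AT-I day 2 samples. The groups were separated by a narrow gap, and the difference was 0.51 ± 0.14 (adjusted p = 0.0318). That call was the least stable of the 10. It ended without any 1 of 6 of the 8 AT-I samples, all but replicate 3 of each day, with values of 0.43 to 0.53 and adjusted p from 0.0532 to 0.110. With each array centred on its median it was 0.35 (adjusted p = 0.129), with quantile normalisation repeated 0.48 (adjusted p = 0.0507) and in a fit of the 2 groups alone 0.51 (adjusted p = 0.0754). On AT-II, Col18a1 averaged 6.82 ± 0.259 at day 4 and 6.23 ± 0.113 at day 2 without overlap, and missed the threshold (0.59 ± 0.16, adjusted p = 0.0543). Col15a1, for the related type XV collagen of muscle and vessels, differed by 0.71 ± 0.27 on AT-I (adjusted p = 0.0959) and by 0.76 ± 0.29 on AT-II (adjusted p = 0.231), with overlap on both.

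Among the associated proteins, Npnt rose most of the 31 genes on both surfaces. Npnt encodes nephronectin, a ligand of the integrin that contains the Itga8 subunit, known from kidney development and from osteoblasts. It had 8.38, 8.20, 7.49 and 8.09 in AT-I day 4 samples, against 6.21, 6.19, 6.24 and 5.76 in AT-I day 2 samples. The gap between the groups exceeded the range within either, and the difference was 1.94 ± 0.19 (adjusted p = 2.57e-05), a 3.85-fold change. On AT-II, Npnt had 8.27, 7.86, 8.36 and 8.03 at day 4, against 5.82, 6.41 and 6.16 at day 2. Again every day 4 sample lay above every day 2 sample, and the difference was 2.00 ± 0.21 (adjusted p = 8.66e-05), a 4.00-fold change. Npnt, Lamb2 and Hspg2 passed on both surfaces under all 26 other settings tried for these comparisons.

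The other 5 associated proteins and both SMOC genes did not pass. Tinagl1, a matricellular protein related to tubulointerstitial nephritis antigen, had the most negative differences of the 31, at -0.56 ± 0.34 on AT-I (adjusted p = 0.282) and -0.52 ± 0.36 on AT-II (adjusted p = 0.625). Its samples scattered widely, from 8.04 to 9.18 in AT-I day 4, 8.18 to 9.70 in AT-I day 2, 8.47 to 9.20 in AT-II day 4 and 8.88 to 10.17 in AT-II day 2. Fbln2, a fibulin that binds nidogen and other matrix proteins, differed by 0.65 ± 0.32 on AT-I (adjusted p = 0.204) and 0.46 ± 0.35 on AT-II (adjusted p = 0.666). Fbln1, Ntn4, which encodes the laminin-binding netrin, and Papln, which encodes papilin, differed by -0.23 to 0.39. The SMOC genes encode calcium-binding matrix proteins related to SPARC. Smoc1 differed by -0.21 ± 0.13 on AT-I (adjusted p = 0.277) and by 0.20 ± 0.14 on AT-II (adjusted p = 0.604). On AT-I it was called lower with centring, as were 1504 of all 17245 genes. It was also called lower there with repeated quantile normalisation, as were 639 of all genes. Smoc2 differed by -0.20 ± 0.19 on AT-I and by -0.43 ± 0.21 on AT-II (adjusted p = 0.414).

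Dag1 encodes dystroglycan, the receptor through which laminins, agrin and perlecan attach to the cell surface. Its levels were 8.90, 8.96, 8.68 and 9.12 in AT-I day 4 samples, against 7.52, 8.17, 8.26 and 8.12 in AT-I day 2 samples. The groups did not overlap, with the first day 2 sample far below its group, and the difference was 0.90 ± 0.17 (adjusted p = 0.003), a 1.86-fold change. On AT-II, Dag1 averaged 9.0 ± 0.159 at day 4 and 8.50 ± 0.301 at day 2 without overlap, and did not pass (0.50 ± 0.19, adjusted p = 0.214).

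**Figure D3:**
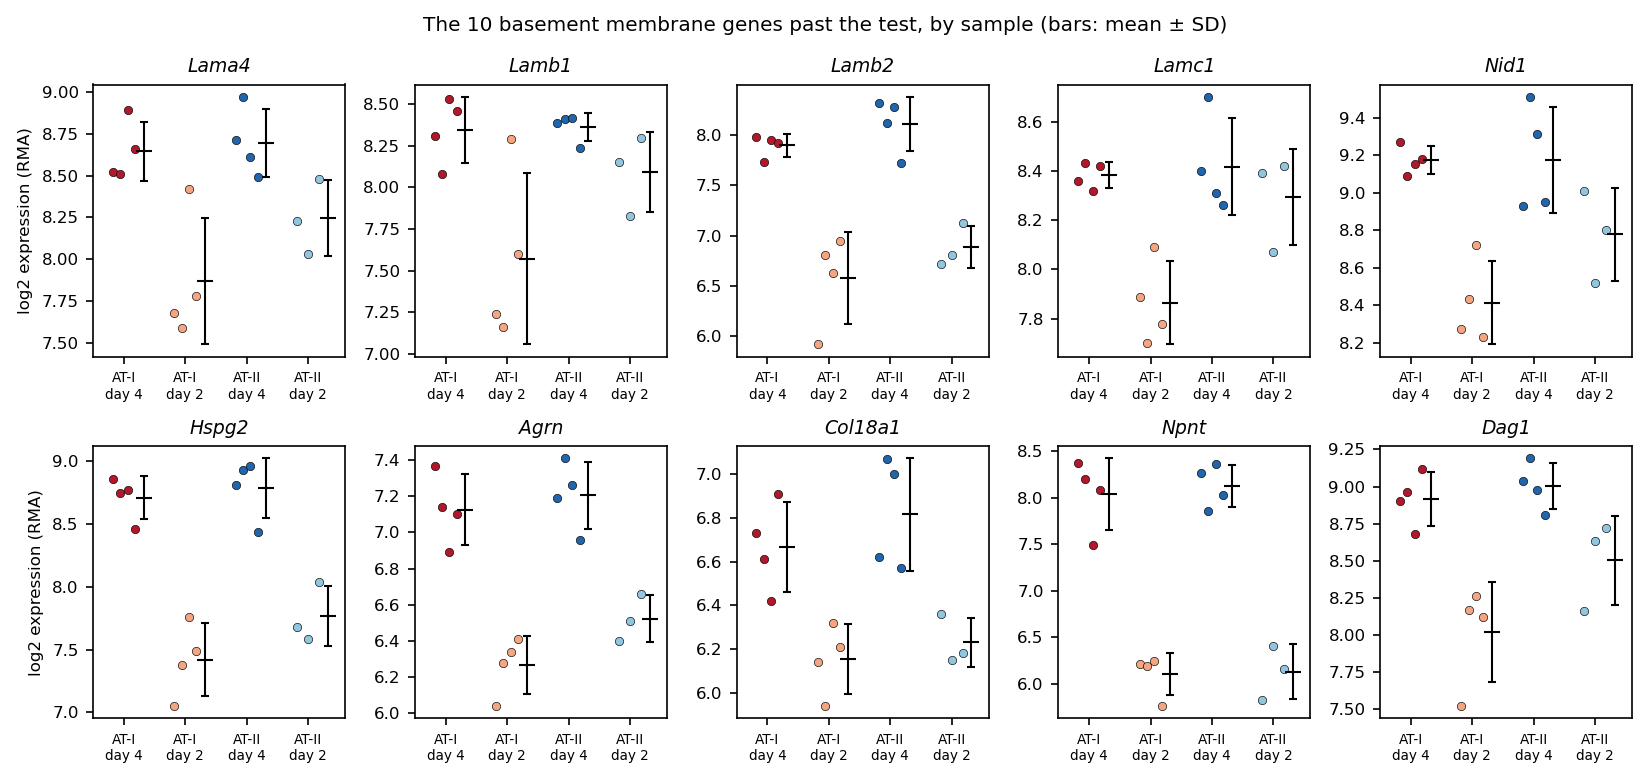
Log2 expression of the 10 genes that passed on AT-I, in each of the 15 samples (points), with the mean ± SD of each group (bars), from AT-I day 4 to AT-II day 2. Npnt, Lamb2, Hspg2, Agrn, Lama4, Col18a1 and Dag1 separate by day on both surfaces, though the last 3 passed the test on AT-I only. Lamc1 and Nid1 overlap on AT-II, and Lamb1 overlaps on both surfaces.

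The difference between the 2 time courses (AT-I minus AT-II) was tested directly, and 0 of the 31 genes passed, against a background of 0% of all genes (limma, 2 of the 31 and 707 of all genes at an unadjusted p under 0.05). So the count of 10 on AT-I against 4 on AT-II is not shown to be a difference between the surfaces. The smallest p-values were those of Smoc1 at -0.42 ± 0.19, Lamc1 at 0.40 ± 0.19 (both adjusted p = 0.924) and Lamb1 at 0.50 ± 0.30.

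The second question, the one named in the study's design, was whether the cells on the 2 surfaces differed on the same day. At day 4, 0 of the 31 genes passed, against a background of 0%, and 0 of them had an unadjusted p under 0.05 (687 of all genes did). The differences, AT-I minus AT-II, ran from -0.34 to 0.17 with a median of -0.03. Lama5 had 5.59, 5.50, 5.58 and 5.60 in AT-I day 4 samples, against 5.71, 5.69, 5.97 and 5.68 in AT-II day 4 samples. It was the only one of the 31 genes whose groups did not overlap with AT-I lower, against 1.41% of all genes, and its difference was -0.19 ± 0.11 (adjusted p = 0.913). Smoc1 had 6.60, 6.71, 6.58 and 6.47 in AT-I day 4 samples, against 6.65, 6.88, 6.63 and 7.00 in AT-II day 4 samples, with overlap (-0.20 ± 0.13, adjusted p = 0.913). Lama1 had 5.47, 5.18, 5.50 and 5.17 in AT-I day 4 samples, against 4.91, 5.27, 5.29 and 5.19 in AT-II day 4 samples, also with overlap (0.16 ± 0.12, adjusted p = 0.913).

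At day 2, 0 of the 31 genes passed between AT-I and AT-II, again against a background of 0%, while 5 of them and 4702 of all genes had an unadjusted p under 0.05. The differences ran from -0.52 to 0.57 with a median of -0.06. Lamc1 was at 7.89, 7.70, 8.09 and 7.78 in AT-I day 2 samples, against 8.39, 8.07 and 8.42 in AT-II day 2 samples. Only the third AT-I sample exceeded the lowest AT-II sample, and the difference was -0.43 ± 0.14 (adjusted p = 0.127). Dag1, at 7.52, 8.17, 8.26 and 8.12 in AT-I day 2 samples, against 8.16, 8.63 and 8.72 in AT-II day 2 samples, overlapped and differed by -0.48 ± 0.19 (adjusted p = 0.139). Lamb3 had 5.37, 5.18, 5.93 and 5.43 in AT-I day 2 samples, against 4.82, 4.75 and 5.15 in AT-II day 2 samples, the only one of the 31 without overlap and higher on AT-I (8.83% of all genes), with a difference of 0.57 ± 0.23 (adjusted p = 0.152). Most of its values lie in the range of low signal. The remaining 2 were Lamb1 at -0.52 ± 0.22 (adjusted p = 0.158) and Nid1 at -0.36 ± 0.17 (adjusted p = 0.178). In the 3 same-numbered pairs at day 2, AT-I was lower for Lamc1 and for Dag1 in every pair and higher for Lamb3 in every pair. These genes were picked for the smallest p of this same comparison. For Lamb3, whose groups did not overlap, any pairing would give this order. The pairs therefore add no separate support. The averaged AT-II sample was given number 2, which left replicate 3 of AT-I without a pair. Set against the averaged sample, that replicate would go the other way for Lamc1, at 8.09 against 8.07. With the replicate number as a random block, 0 of the 31 genes passed, against 0.539% of all genes, and Lamc1 had adjusted p = 0.0515, Dag1 0.0593 and Lamb3 0.0874. Lamc1, Dag1 and Lamb3, 3 of the 31 genes, passed with array weights, where 21.5% of all genes passed, and with a random replicate block over 16 separate arrays, where 27.3% of all genes passed. The share of the 31 genes was below that background in both fits. Over all the other settings the difference ran from -0.56 to -0.14 for Lamc1, -0.66 to -0.21 for Dag1 and 0.06 to 0.71 for Lamb3. The largest adjusted p was 0.996 for each of them. With each array's interquartile range as a covariate, 713 of all genes had an unadjusted p under 0.05 at day 2, against 4702 in the main fit.

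**Figure D4:**
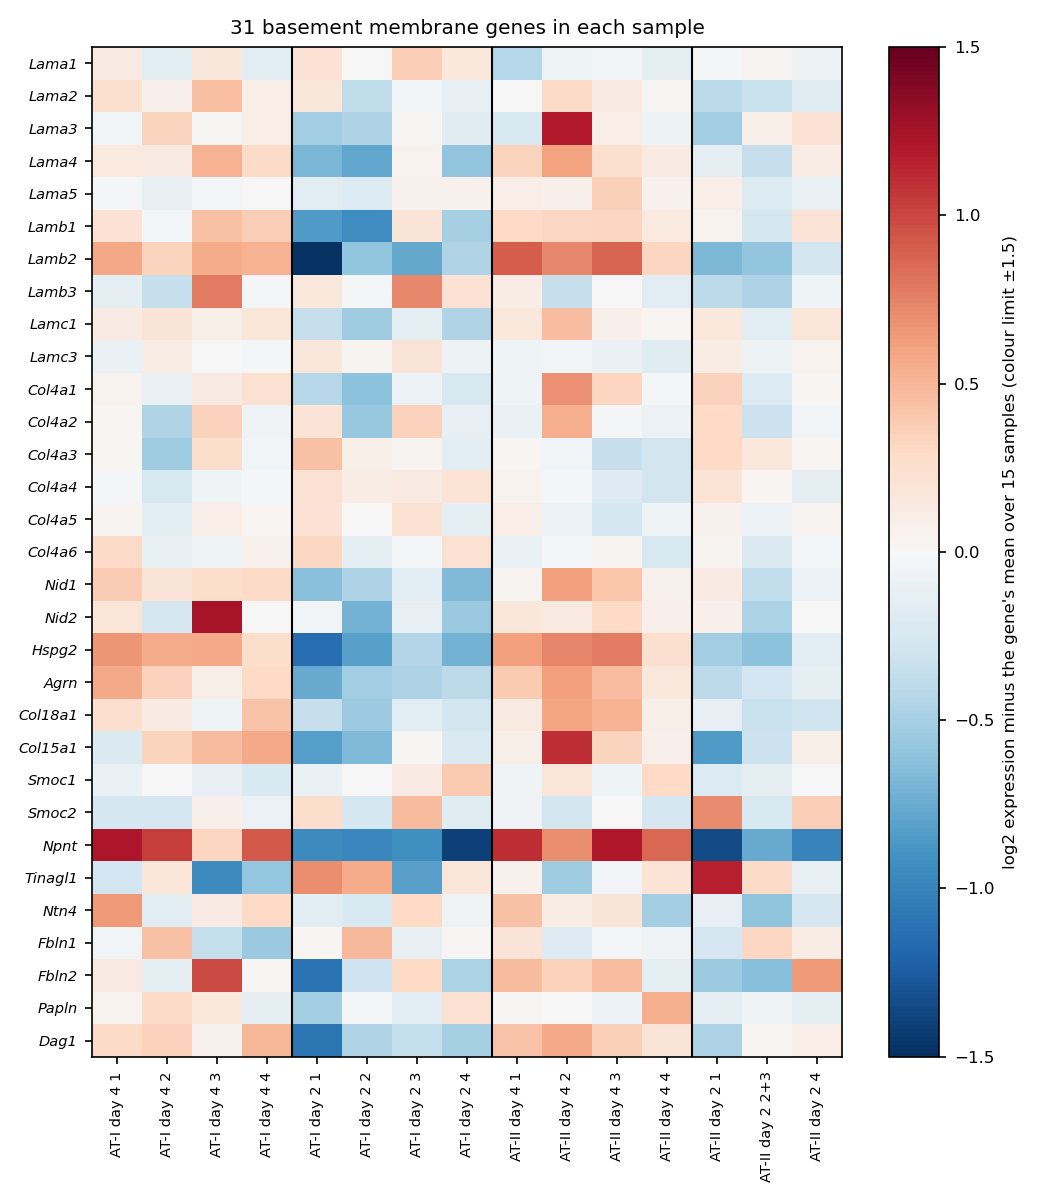
Log2 expression of each of the 31 genes in each of the 15 samples, minus the gene's mean over the samples (red higher, blue lower, colour limit ±1.5), with vertical lines between AT-I day 4, AT-I day 2, AT-II day 4 and AT-II day 2. AT-I day 2 replicate 1 holds the lowest values of Lamb2, Hspg2, Agrn and Dag1, and Npnt separates the days on both surfaces.

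Genes that make, modify or bind these proteins were counted in further lists. The counts of these lists stand against 8.84% of all genes that were higher at day 4 on AT-I and 3.13% on AT-II. For the folding and cross-linking of type IV collagen, 12 of 19 genes rose on AT-I and 7 of 19 on AT-II, with medians of 1.00 and 0.79, although the collagen IV chains themselves did not pass. These enzymes also act on fibrillar collagens. Loxl4, a lysyl oxidase-like cross-linking enzyme, rose by 2.26 ± 0.22 on AT-I and 2.32 ± 0.24 on AT-II. Plod2, a lysyl hydroxylase, rose by 1.7 ± 0.27 on AT-I and 1.55 ± 0.29 on AT-II, and P3h1 and Crtap, partners in prolyl hydroxylation, rose by 1.65 ± 0.24 and 1.47 ± 0.22 on AT-I and by 1.47 ± 0.26 and 1.27 ± 0.23 on AT-II. Without AT-II day 2 replicate 1 the AT-II count was 2, and it was 4 without the averaged sample or without AT-II day 4 replicate 1.

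For synthesis and editing of the heparan sulfate chains that perlecan and agrin carry, 5 of 18 genes rose on AT-I and 0 on AT-II, with medians of 0.21 and 0.16. Sulf1, a sulfatase that trims finished chains, rose by 0.82 ± 0.17 on AT-I, and it differed by 0.18 ± 0.18 on AT-II (adjusted p = 0.761). The AT-I count was fragile, and was 1 to 3 without any 1 of 8 samples: 1 without replicate 1 of AT-I day 2 or replicate 4 of AT-I day 4, 2 without replicate 2 of AT-I day 4, and 3 without replicate 4 of AT-I day 2, replicate 1 of AT-I day 4, replicate 1 or 3 of AT-II day 4, or the averaged sample. It was also 1 with centring and 2 with repeated quantile normalisation.

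Of the partners of dystroglycan and the enzymes that glycosylate it, 6 of 10 measured genes rose on AT-I and 4 on AT-II (2 on AT-II without AT-II day 2 replicate 1), with medians of 0.62 and 0.55. Sgcd, a sarcoglycan, rose by 2.12 ± 0.29 on AT-I and 1.78 ± 0.31 on AT-II. Dtna, a dystrobrevin, rose by 0.91 ± 0.15 on AT-I and 1.33 ± 0.17 on AT-II. Utrn, the dystrophin relative utrophin, rose by 0.79 ± 0.15 on AT-I and differed by 0.57 ± 0.16 on AT-II (adjusted p = 0.0755). Of 18 other basement membrane receptors, 7 rose on AT-I and 4 on AT-II, with medians of 0.04 and 0.08. Ddr2, a collagen receptor, rose by 1.67 ± 0.15 on AT-I and 1.10 ± 0.16 on AT-II, and the netrin receptor Unc5b by 2.18 ± 0.28 on AT-I and 1.95 ± 0.30 on AT-II.

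Of 18 proteases and inhibitors that act on basement membranes, 4 rose on AT-I and 3 on AT-II, with medians of 0.24 and 0.35. Mmp2, a gelatinase that cleaves type IV collagen, rose by 2.71 ± 0.37 on AT-I and 2.50 ± 0.40 on AT-II, and its activator Mmp14 by 1.33 ± 0.24 on AT-I and 1.28 ± 0.26 on AT-II. Bmp1, the protease that processes procollagens, rose by 1.89 ± 0.22 on AT-I and 1.54 ± 0.24 on AT-II. Among 16 measured genes of other basement membrane and anchoring components, 3 rose on AT-I and 2 on AT-II, with medians of -0.09 and 0.13. Sparc, a collagen-binding protein abundant in bone, rose by 1.45 ± 0.24 on AT-I and 1.17 ± 0.25 on AT-II, and Efemp2, a fibulin of elastic fibres, by 1.34 ± 0.20 on AT-I and 0.97 ± 0.22 on AT-II. The AT-I count was 5, of which 2 were lower, without AT-I day 4 replicate 3. The AT-II count was 0 without AT-II day 2 replicate 1, the averaged sample, AT-II day 4 replicate 1 or AT-II day 4 replicate 3. In the comparisons between surfaces, 0 genes of any list passed.

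Some markers of cell types moved with the days as well. Their counts stand against the same shares of all genes called higher, 8.84% on AT-I and 3.13% on AT-II. Of 9 measured osteoblast lineage markers, 9 rose on AT-I and 8 on AT-II (5 without AT-II day 2 replicate 1), and their mean level per sample ran from 10.16 to 10.80 in AT-I day 4, 7.14 to 8.28 in AT-I day 2, 10.16 to 10.88 in AT-II day 4 and 7.31 to 8.67 in AT-II day 2. Phex, an endopeptidase of bone cells, rose by 4.24 ± 0.39 on AT-I and 3.85 ± 0.42 on AT-II. Of 8 marrow stromal markers, 4 rose on AT-I and 2 on AT-II (4 without AT-II day 2 replicate 4). Their mean level per sample was 9.21 to 9.55 in AT-I day 4, 7.78 to 8.58 in AT-I day 2, 9.24 to 9.60 in AT-II day 4 and 8.49 to 8.94 in AT-II day 2.

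Vessels, whose basement membranes hold many of these proteins, were followed through markers of their cells. Of 12 measured endothelial markers, 1 rose on AT-I (Egfl7, by 0.43 ± 0.13) and 0 on AT-II, with medians of 0.21 and -0.01. The count on AT-I is near the share of all genes called higher there, 8.84%, and so is no result about vessels. The AT-I count was 0, 2 or 3 in 16 of 26 other settings. The mean level of the endothelial markers ran from 7.28 to 7.52 in AT-I day 4, 6.98 to 7.33 in AT-I day 2, 7.42 to 7.60 in AT-II day 4 and 7.31 to 7.81 in AT-II day 2. Of 11 pericyte and smooth muscle markers, 3 rose on AT-I (Rgs5 by 1.10 ± 0.23, Notch3 by 0.70 ± 0.15 and Cspg4 by 1.33 ± 0.29) and 1 on AT-II (Cspg4 by 1.31 ± 0.31), with medians of 0.39 and 0.07. The AT-I count was 5 without AT-I day 4 replicate 3, and the AT-II count was 0 without replicate 1 of AT-II day 2, the averaged sample, or replicate 1, 2 or 3 of AT-II day 4. Their mean level ran from 7.47 to 7.60 in AT-I day 4, 6.79 to 7.43 in AT-I day 2, 7.42 to 7.88 in AT-II day 4 and 7.22 to 7.60 in AT-II day 2. The part of any of these cell types in the changes of the basement membrane genes was not tested.

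The remaining marker lists held few calls, and leaving out single samples moved some of these counts (0 to 3 for Schwann cell and 0 to 1 for epithelial markers on AT-I, 1 to 3 for chondrocyte markers on AT-II). Chondrocyte markers rose in 2 of 8 on AT-I and 3 of 8 on AT-II, with medians of 0.27 and 0.24. Col11a2 rose by 1.41 ± 0.17 on AT-I and 1.44 ± 0.18 on AT-II. Col9a1 went the other way without passing (-0.33 ± 0.15 on AT-I and -0.17 ± 0.16 on AT-II). Schwann cell markers rose in 2 of 6 on AT-I (Pmp22 and Ncam1) and 0 on AT-II, with medians of -0.09 and -0.05. Sox10 (-0.26 ± 0.13) and Prx (-0.22 ± 0.12) were lower on AT-I without passing. None of the 8 adipocyte markers passed. On AT-I, 1 gene each was lower among 7 skeletal muscle markers (Pvalb, -0.73 ± 0.17), 5 epithelial markers (Cldn7, -0.37 ± 0.11), 7 macrophage markers (Cd14, -0.67 ± 0.15) and 8 neutrophil markers (Csf3r, -0.92 ± 0.21). Over all 17245 genes, 458 were called lower there. The epithelial markers, whose cell type assembles laminins from Lama3 and Lamb3, had mean levels of 5.17 to 5.39 in AT-I day 4, 5.38 to 5.60 in AT-I day 2, 5.27 to 5.35 in AT-II day 4 and 5.37 to 5.59 in AT-II day 2. Macrophage markers had mean levels of 9.67 to 10.09 in AT-I day 4, 9.47 to 10.05 in AT-I day 2, 9.83 to 10.27 in AT-II day 4 and 9.77 to 10.36 in AT-II day 2. Neutrophil markers had 10.11 to 10.82 in AT-I day 4, 10.52 to 11.14 in AT-I day 2, 10.25 to 10.55 in AT-II day 4 and 10.49 to 11.14 in AT-II day 2.

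**Figure D5:**
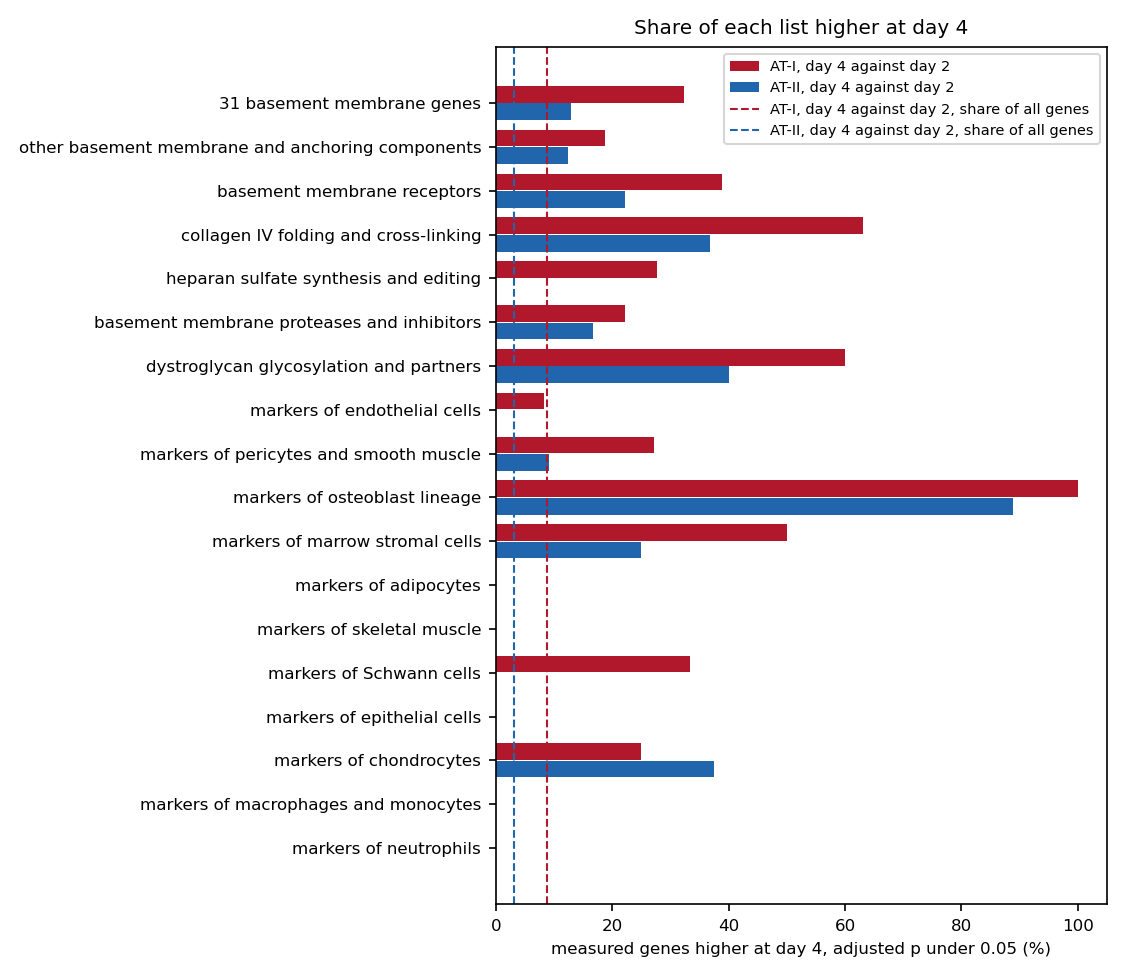
Share of the measured genes of each list that were higher at day 4 than at day 2 (adjusted p under 0.05), on AT-I (red bars) and AT-II (blue bars), with dashed lines at the share of all genes, 8.84% on AT-I and 3.13% on AT-II. The 31 basement membrane genes stand at 32.3% and 12.9%, the osteoblast lineage markers at the top, and adipocyte, skeletal muscle, epithelial, macrophage and neutrophil markers at 0.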

How the data were processed

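Per the submitters' processing notes, the authors normalised the arrays with RMA in Affymetrix Expression Console; the deposited values are taken as log2, a base inferred from RMA. Neither versions nor probe filters are known here. RMA's quantile step is meant to give arrays like distributions, so a shift of most genes together may have been removed, at least in part. The gene values tested still differed in level between arrays. Once array medians were subtracted, the median day 4 minus day 2 difference over all genes went from -0.05 to -0.21 on AT-I. On AT-II it went from -0.05 to -0.16. The main values therefore still hold some difference in level between arrays. Of 29214 rows, 18644 named 1 gene in the platform annotation, 962 several and 9608 none; for genes with more than 1 row the brightest was used. Members and lists were chosen with earlier results of these data known. limma 3.58.1 in R 4.3.3 (lmFit, eBayes, group means over 15 samples, two-sided, 11 residual degrees of freedom) was applied to all 17245 genes at a Benjamini-Hochberg threshold of 0.05 and was tested on simulated data. Named were members past the threshold, the 3 smallest p where none passed, the collagen IV pairs, and some of the 4 list genes of smallest p. Alternatives were 15 fits without 1 sample and 12 others (normalisation, filter, variance model, replicate block). At day 2, the deviations of same-numbered samples of the surfaces were correlated at 0.646, 0.621 and 0.199 over 3 pairs, and blocked values stand beside that comparison. Samples of unlike number were not correlated for reference, so these values do not show that a number marks a rat. No label states the pairing. Python 3.11.15 and matplotlib 3.10.9 drew figures.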

Additional observations from a re-analysis of the deposited data

Results flagged for a closer look

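Dixon's test was run on the 31 genes in the 3 groups of 4 samples, 93 groups of values in all, and 6 had a sample far from the others, where chance gives about 1 in 20. Npnt was at 5.76 in AT-I day 2 replicate 4, while the other AT-I day 2 samples lay between 6.19 and 6.24. Lamb1 was at 8.24 in AT-II day 4 replicate 4 and 8.39 to 8.42 in the others, and Papln was at 6.36 in the same sample and 5.73 to 5.84 in the others. Col4a2 was at 8.82 in AT-II day 4 replicate 2 and 8.17 to 8.26 in the others. Lama5 was at 5.97 in AT-II day 4 replicate 3 and 5.68 to 5.71 in the others. Col4a4 was at 5.16 in AT-I day 4 replicate 2 and 5.35 to 5.39 in the others.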

How the results depend on the processing

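Other settings numbered 26 or 27 for each comparison. The median of the 31 genes between the surfaces ran from -0.12 to 0.06 at day 4 and from -0.22 to 0.07 at day 2, and so had no settled sign. The count of the 31 genes called on AT-I was 8 to 10 without 1 sample and 7 to 13 in the other settings (main value 10), and on AT-II 3 to 5 and 3 to 6 (main value 4). These counts take both directions together. On AT-I, repeated quantile normalisation called 6 of the 31 higher and 1 lower, against 1218 higher and 639 lower of all 17245 genes. Between the surfaces at day 2 the count was 3 with array weights and 3 with the random replicate block over 16 separate arrays (main value 0), and 0 in all other settings; the cause was not tested. At day 4 and for the difference of the time courses it was 0 in every setting. Over all genes, calls between the surfaces at day 2 numbered 0 in the main fit. They numbered 2194 with 16 arrays counted separately and 4701 with the random replicate block over 16 arrays. With the pair still averaged, they numbered 3710 with array weights, 1 with repeated quantile normalisation and 713 without AT-I day 2 replicate 2. Day calls over all genes were 1983 on AT-I (1060 to 2954 elsewhere; 1158 without AT-I day 4 replicate 4) and 575 on AT-II (223 to 1228; 223 when replicate 1 of AT-II day 2 was left out, 294 without the averaged sample, 312 and 354 without AT-II day 4 replicates 1 and 3). Centring each array on its median turned the share of higher calls to 39.7% on AT-I, against 76.9%, and to 72.2% on AT-II, against 93.9%; it was 65.6% on AT-I with repeated quantile normalisation and 74.8% on AT-II with array weights. Of the 31 genes, centring called 7 higher and 2 lower on AT-I, against 991 higher and 1504 lower of all 17245 genes. Each array's interquartile range as a covariate added Lama2, Col4a1 and Nid2 on AT-I. At day 4, same-numbered samples of the 2 surfaces had deviations correlated at 0.13, -0.339, 0.468 and 0.201. Whether same-numbered samples share more than a number is not known on either day. With a random replicate block 10 and 4 of the 31 genes passed by day and 0 between the surfaces on either day; 93 of all genes passed between the surfaces at day 2, and 0 with a fixed block. The number of arrays limits precision throughout.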
